A study of Homo sapiens with 12 samples.

Results

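The 10 genes described here encode glycoproteins of the extracellular matrix other than collagens: TNC, TNXB, EMILIN1, EMILIN2, SCUBE1, FN1, FBN1, FBN2, SPARC and THBS1. They were chosen by symbol from the 60554 gene identifiers counted in the series. TNC, TNXB, EMILIN2 and SCUBE1 were picked because they changed in particular knockdowns in these same libraries. Their values are therefore given as a description, without a test. The other 6 were not picked for such changes, but they too were listed with earlier results of these data known. They are reported with the test that covered all genes, and its p-values do not account for that choice. All 10 passed the filter on low counts, and 29003 genes were tested.

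The cells were HEK293, a human line of embryonic kidney origin. The labels name HEK293 as the source and HEK293T, its derivative with the SV40 large T antigen, as the line, at passage 10 in every sample. There were 4 groups of 3 libraries: cells given an siRNA pool (SMARTpool:ON-TARGETplus) against RBM17, U2SURP or CHERP, and control cells given ON-TARGET plus Non-targeting siRNA #3, whose label names no pool. All 3 targets act in pre-mRNA splicing together with the U2 particle, and the design sets each depletion against control. The labels do not say whether the libraries of a group came from separate cultures. A p-value here thus rests on library-to-library spread, and that spread may be technical alone.

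Libraries held 252505520 to 320986785 counts. Levels are in CPM, counts per 1000000 of the library size after TMM scaling, as mean ± SD over 3 libraries, and log2 fold changes are ± SE from edgeR's quasi-likelihood fit. A gene was called at a Benjamini-Hochberg adjusted p under 0.05. Each target was lowered by its own pool, RBM17 to 23.0%, U2SURP to 30.5% and CHERP to 29.3% of control. Mitochondrially encoded genes took 7.88% to 8.70% of counts in control libraries and 3.98% to 5.15% in knockdown libraries, and the part of this shift in the results was not tested. In RNA from whole cultures, fewer cells that express a gene and less RNA of it per cell cannot be told apart. All 7 genes checked as markers of the line were detected. Their summed level was 641 to 710 CPM in control, 728 to 816 in RBM17, 635 to 686 in U2SURP and 642 to 740 in CHERP knockdown. VIM and NEFM made up most of each sum, and single markers moved within it. In RBM17 knockdown 4 rose (25.4% of all genes tested were called higher). In U2SURP knockdown 2 rose and 4 fell (21.1% and 22.2% of all genes), and in CHERP knockdown 3 rose and 3 fell (22.8% and 24.6%). In CHERP knockdown VIM went from 262 to 396 CPM (adjusted p = 3.66e-07) and NEFM from 259 to 146 CPM (adjusted p = 6.05e-11). The scarce marker PAX2 went from 1.25 to 0.516 CPM there (adjusted p = 1.27e-07).

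Matrix glycoproteins are secreted, assemble around cells and bind integrins, proteoglycans and growth factors. Fibronectin and the fibrillins form fibrils and microfibrils on which other matrix proteins are laid down, and the fibrillins also hold latent TGF-beta complexes. Tenascins, SPARC and thrombospondins are largely matricellular: they modulate how cells attach and respond to signals more than they bear load. EMILIN proteins lie at the interface of elastin and microfibrils, and SCUBE proteins are secreted or held at the cell surface.

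The start regions of 5 of the genes are shown as examples of patterns across the groups, and these patterns overlap. EMILIN2 and THBS1 had their highest level in RBM17 knockdown, FBN1 and FBN2 were lower in all 3 knockdowns, and TNC was lowest in CHERP knockdown. TNC too was lower in all 3 knockdowns, and EMILIN2, THBS1 and FBN2 also had their lowest mean in CHERP knockdown. The sequences are the 250 bases before the RefSeq start (GRCh38.p14), read 5′ to 3′ on the gene's strand. For TNC, the stretch stops before the first exon that GENCODE 29 annotates. The FBN1 and FBN2 windows lie within those genes as GENCODE 29 annotates them, with gene starts further upstream at 48645849 and 128659185. Capitals mark 4 motifs searched on both strands, TATAA (the TATA box core), GGGCGG (the GC box), TGANTCA (an AP-1 motif) and GGAATG (a TEAD motif). Which start HEK293 cells use was not measured. The windows are chr18:2846756-2847005 (plus strand) for EMILIN2, chr15:39580829-39581078 (plus) for THBS1, chr15:48644971-48645220 (minus) for FBN1, chr5:128538246-128538495 (minus) for FBN2 and chr9:115118258-115118407 (minus) for TNC.
EMILIN2: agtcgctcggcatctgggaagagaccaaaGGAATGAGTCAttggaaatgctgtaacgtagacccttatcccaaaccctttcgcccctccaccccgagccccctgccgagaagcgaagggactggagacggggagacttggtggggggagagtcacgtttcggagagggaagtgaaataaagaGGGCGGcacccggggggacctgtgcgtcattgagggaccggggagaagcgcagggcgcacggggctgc
THBS1: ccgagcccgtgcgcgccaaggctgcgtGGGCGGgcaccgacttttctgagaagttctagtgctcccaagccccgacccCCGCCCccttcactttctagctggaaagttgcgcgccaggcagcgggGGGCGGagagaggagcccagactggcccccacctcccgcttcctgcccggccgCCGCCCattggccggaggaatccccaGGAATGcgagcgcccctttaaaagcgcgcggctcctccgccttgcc
FBN1: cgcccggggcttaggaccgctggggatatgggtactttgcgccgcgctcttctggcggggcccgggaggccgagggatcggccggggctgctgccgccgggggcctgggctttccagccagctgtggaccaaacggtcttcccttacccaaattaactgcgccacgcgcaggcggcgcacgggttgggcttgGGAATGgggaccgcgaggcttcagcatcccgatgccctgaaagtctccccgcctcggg
FBN2: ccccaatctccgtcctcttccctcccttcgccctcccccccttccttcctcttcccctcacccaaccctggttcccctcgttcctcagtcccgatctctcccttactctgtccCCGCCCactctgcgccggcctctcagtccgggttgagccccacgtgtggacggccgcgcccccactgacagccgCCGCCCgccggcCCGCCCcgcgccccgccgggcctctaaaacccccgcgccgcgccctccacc
TNC: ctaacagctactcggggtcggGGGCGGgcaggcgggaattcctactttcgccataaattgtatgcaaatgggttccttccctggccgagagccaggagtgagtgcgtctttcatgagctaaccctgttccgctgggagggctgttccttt

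Of all 35116 windows of this length in the RefSeq table, 18.9% held TATAA, 42.6% GGGCGG, 6.57% TGANTCA and 11.9% GGAATG. The EMILIN2 window held GGAATG and TGANTCA with overlapping letters, in a run that begins 221 bases before the start, and it also held a GGGCGG. THBS1 had 4 GGGCGG matches and a GGAATG 46 bases before the start, FBN1 a GGAATG 58 bases before it, and FBN2 3 GGGCGG matches. In TNC, TATAA lay 27 bases before the RefSeq start, outside the stretch printed. The table held windows for 8 of the 10 genes, with none for EMILIN1 and SCUBE1. A match describes letters and not a bound site.

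TNC encodes tenascin-C, a matricellular glycoprotein abundant in developing and wounded tissue (ENSG00000041982; GRCh38 chromosome 9, 115019578 to 115118257, minus strand). In control its 3 libraries stood at 35.7, 31.6 and 33.1 CPM, and in RBM17 knockdown at 17.6, 17.4 and 18.0 CPM. U2SURP knockdown libraries stood at 15.0, 16.8 and 17.7 CPM, and CHERP knockdown libraries at 7.03, 8.28 and 9.08 CPM. Every knockdown library lay below every control library, the RBM17 and U2SURP knockdowns overlapped, and CHERP knockdown lay below both. Relative to control the mean was 52.8% in RBM17 (log2 -0.92 ± 0.077), 49.3% in U2SURP (log2 -1.02 ± 0.077) and 24.3% in CHERP knockdown (log2 -2.04 ± 0.080). Between the knockdowns, TNC was 1.12 ± 0.079 log2 units higher in RBM17 than in CHERP knockdown and 1.02 ± 0.079 higher in U2SURP than in CHERP knockdown.

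SCUBE1 encodes a secreted and cell-surface protein with EGF-like and CUB domains (ENSG00000159307; chromosome 22, 43197283 to 43343388, minus strand). Its control libraries held 8.78, 8.21 and 8.95 CPM, against 4.95, 4.86 and 4.68 CPM in RBM17 knockdown. In U2SURP knockdown they held 5.96, 5.67 and 5.63 CPM and in CHERP knockdown 2.53, 2.35 and 1.72 CPM. As with TNC, control was highest and CHERP knockdown lowest, but for SCUBE1 the libraries of the 4 groups did not overlap at all. The mean was 55.9% of control in RBM17 (log2 -0.84 ± 0.099), 66.6% in U2SURP (log2 -0.59 ± 0.099) and 25.4% in CHERP knockdown (log2 -1.98 ± 0.10). The CHERP libraries rest on 532 to 714 reads each. Antisense genes annotated on the opposite strand of SCUBE1 averaged at most 3.7 reads per group.

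TNXB encodes tenascin-X, which binds collagen fibrils and whose loss causes a form of Ehlers-Danlos syndrome (ENSG00000168477; chromosome 6, 32041153 to 32115334, minus strand). Control libraries held 8.14, 7.19 and 6.28 CPM and RBM17 knockdown libraries 3.32, 2.24 and 2.62 CPM. Levels were 15.5, 13.6 and 13.4 CPM in U2SURP knockdown and 12.3, 10.8 and 9.45 CPM in CHERP knockdown. TNXB therefore lay below control in RBM17 knockdown and above it in the other two, with no overlap between any groups. The mean was 37.8% of control in RBM17 (log2 -1.40 ± 0.13), 196% in U2SURP (log2 0.97 ± 0.13) and 150% in CHERP knockdown (log2 0.59 ± 0.13). Between RBM17 and U2SURP knockdown it differed 5.18-fold in the fit (log2 -2.37 ± 0.13).

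The TNXB counts carry a limit of annotation. Its start shares 71 exonic bases with ATF6B on the same strand, which averaged 26820 reads in control, 22881 in RBM17, 19170 under U2SURP and 17073.7 under CHERP knockdown, so ATF6B did not follow the order of TNXB. TNXA, a partial near-identical pseudogene copy, held 16 to 56 reads per library in control, 2 to 8 in RBM17, 19 to 24 in U2SURP and 17 to 20 in CHERP knockdown. It was thus lowest in RBM17 knockdown, as TNXB was, and how reads were split between the copies is not given in the sources used here.

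**Figure D1:**
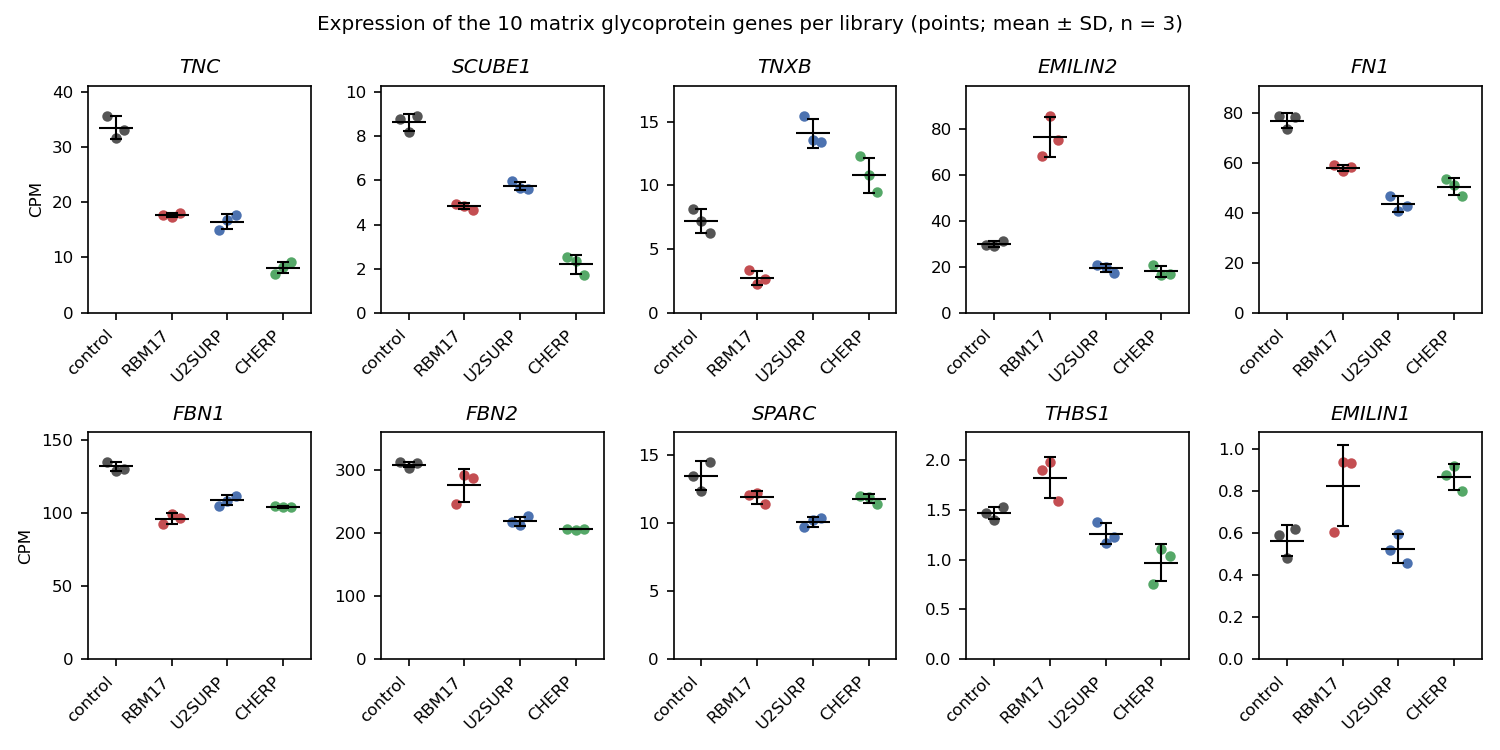
Level in CPM (vertical axis from 0, a separate scale per gene) of the 10 genes in each library of control and of RBM17, U2SURP and CHERP knockdown; points are libraries, the black bar is the mean and the whiskers the SD of 3 libraries. TNC and SCUBE1 step down to CHERP knockdown, TNXB is low in RBM17 knockdown and high in the other two, and EMILIN2 stands at 68.5 to 86.0 CPM in RBM17 knockdown alone.

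EMILIN2 encodes a secreted glycoprotein of the elastin microfibril interface family (ENSG00000132205; chromosome 18, 2847030 to 2915993, plus strand). Control libraries stood at 29.4, 29.1 and 31.2 CPM and RBM17 knockdown libraries at 68.5, 86.0 and 75.5 CPM. In U2SURP knockdown they stood at 20.8, 19.7 and 17.4 CPM, and in CHERP knockdown at 20.9, 16.4 and 16.7 CPM. RBM17 knockdown was above control, and the other two knockdowns were below it and overlapped each other. The mean was 256% of control in RBM17 (log2 1.36 ± 0.096), 64.5% in U2SURP (log2 -0.63 ± 0.095) and 60.2% in CHERP knockdown (log2 -0.73 ± 0.095). EMILIN2 was thus the mirror image of TNXB in direction against control in each of the 3 knockdowns. Since both were picked for such changes, the contrast between them is a description.

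For these 4 picked genes the libraries of each knockdown lay apart from control in all 12 pairs of gene and knockdown. The genes were picked for changes in these same libraries, so this count follows largely from the choice and is no test. Over all genes tested, libraries did not overlap control for 59.3% of genes in RBM17, 52.0% under U2SURP and 54.9% under CHERP knockdown. Leaving out any library of a comparison kept the sign of every fold change given for the 4 genes, which the choice also favours.

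Of the 6 genes not picked for a change, 4 fell and 1 rose in RBM17 knockdown. In U2SURP knockdown 4 fell and the other two were not called, and in CHERP knockdown 5 fell and 1 rose. The RBM17 count depended on the scaling: with DESeq2 size factors, the DESeq2 Wald test or a fit of the 2 groups, 2 were called lower (FN1 and FBN1) and 2 higher (EMILIN1 and THBS1). Without RBM17 knockdown library 1 or 3, or control library 1 or 3, 3 were called lower, and without RBM17 knockdown library 2 or 3, or control library 2, EMILIN1 was no longer called. Among all genes tested, 29.3% were called lower and 25.4% higher in RBM17, 22.2% lower and 21.1% higher in U2SURP, and 24.6% lower and 22.8% higher in CHERP knockdown. These shares also turned with the setting. With DESeq2 size factors they were 26.1% lower and 28.0% higher in RBM17, 20.3% and 22.8% in U2SURP, and 23.0% and 24.3% in CHERP knockdown. Among protein-coding genes fitted by themselves they were 32.9% lower and 34.8% higher in RBM17, 28.6% and 30.2% in U2SURP, and 31.2% and 32.2% in CHERP knockdown. The median log2 fold change of the 6 was -0.17 in RBM17, -0.35 under U2SURP and -0.45 under CHERP knockdown, against -0.099, -0.025 and -0.004 over all genes. These comparisons share the control libraries, so the columns of falls are not independent of each other.

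FN1 encodes fibronectin, the fibril-forming ligand of the integrin made of ITGA5 and ITGB1 (ENSG00000115414; chromosome 2, 215360440 to 215436172, minus strand). Control libraries held 78.8, 73.3 and 78.4 CPM and RBM17 knockdown libraries 58.9, 56.5 and 58.1 CPM. They held 46.8, 40.6 and 42.5 CPM in U2SURP and 53.5, 50.9 and 46.6 CPM in CHERP knockdown. All knockdown libraries lay below all control libraries, and U2SURP and CHERP knockdown overlapped. FN1 was called lower in RBM17 (log2 -0.41 ± 0.059, adjusted p = 2.40e-06), in U2SURP (log2 -0.83 ± 0.059, adjusted p = 2.23e-10) and in CHERP knockdown (log2 -0.61 ± 0.059, adjusted p = 9.29e-09). It was higher in RBM17 than in U2SURP knockdown by 0.42 ± 0.059 log2 units (adjusted p = 3.28e-06). Smaller differences separated RBM17 from CHERP knockdown (0.20 ± 0.059, adjusted p = 0.00641) and U2SURP from CHERP knockdown (-0.22 ± 0.059, adjusted p = 0.00710). The former was not called when protein-coding genes were fitted by themselves (log2 0.12, adjusted p = 0.0661), nor the latter without U2SURP knockdown library 2 (log2 -0.17, adjusted p = 0.0618).

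FBN1 encodes fibrillin-1, the main microfibril protein and the gene altered in Marfan syndrome (ENSG00000166147; chromosome 15, 48408306 to 48645849, minus strand). Control libraries stood at 135, 129 and 130 CPM and RBM17 knockdown libraries at 92.3, 99.5 and 96.9 CPM. U2SURP knockdown gave 105, 108 and 112 CPM, and CHERP knockdown 105, 104 and 104 CPM. Here RBM17 knockdown was lowest, at 73.2% of control, against 82.6% in U2SURP and 79.3% in CHERP knockdown. FBN1 fell in RBM17 (log2 -0.45 ± 0.048, adjusted p = 2.53e-08), in U2SURP (log2 -0.28 ± 0.048, adjusted p = 4.99e-05) and in CHERP knockdown (log2 -0.33 ± 0.048, adjusted p = 3.21e-06). The direct difference of RBM17 from U2SURP knockdown was called (log2 -0.17 ± 0.048, adjusted p = 0.00438). That of RBM17 from CHERP knockdown passed narrowly (log2 -0.12 ± 0.048, adjusted p = 0.0459) and was lost on leaving out RBM17 knockdown library 1 (adjusted p = 0.157) or 3 (0.0880) or any CHERP knockdown library (0.0969, 0.102 and 0.334 for libraries 1, 2 and 3).

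FBN2 encodes fibrillin-2, a microfibril protein of fetal tissues (ENSG00000138829; chromosome 5, 128257909 to 128659185, minus strand). Its libraries stood at 312, 303 and 310 CPM in control and at 246, 292 and 287 CPM in RBM17 knockdown. They stood at 217, 212 and 227 CPM in U2SURP and at 206, 205 and 206 CPM in CHERP knockdown. The order was control, RBM17, U2SURP and CHERP knockdown, without overlap. FBN2 fell in U2SURP (log2 -0.50 ± 0.057, adjusted p = 2.13e-07) and CHERP knockdown (log2 -0.58 ± 0.057, adjusted p = 1.10e-08). In RBM17 knockdown the decrease was small (log2 -0.17 ± 0.057, adjusted p = 0.0167). Without RBM17 knockdown library 1, the lowest of its group, that value was -0.09 (adjusted p = 0.133), and DESeq2 size factors gave -0.11 (adjusted p = 0.120). In direct contrasts FBN2 was 0.33 ± 0.057 log2 units higher in RBM17 than in U2SURP knockdown (adjusted p = 4.08e-05) and 0.42 ± 0.057 higher than in CHERP knockdown (adjusted p = 1.32e-06). The difference between U2SURP and CHERP knockdown was not called (0.09 ± 0.057, adjusted p = 0.290), and no test compared FBN1 with FBN2.

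**Figure D2:**
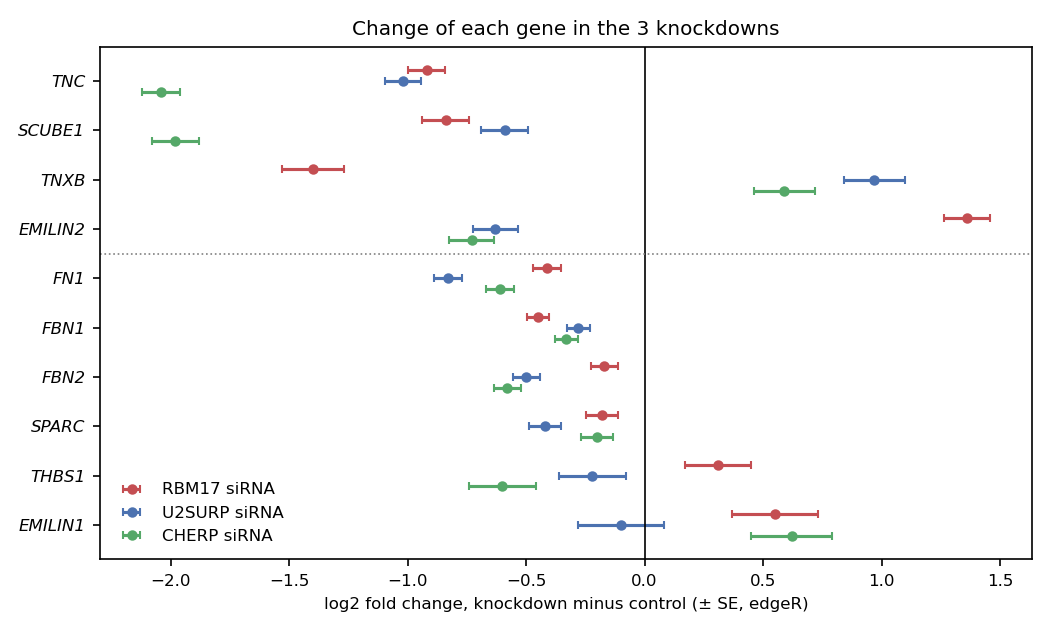
Log2 fold change against control (horizontal axis, ± SE from edgeR) of each gene in RBM17, U2SURP and CHERP knockdown. Genes above the dotted line were picked for their changes in these libraries. FN1, FBN1, FBN2 and SPARC lie below 0 in all 3 knockdowns, while THBS1 and EMILIN1 lie on both sides.

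SPARC encodes osteonectin, a matricellular protein that binds calcium and collagen (ENSG00000113140; chromosome 5, 151661096 to 151687165, minus strand). Control libraries held 13.5, 12.4 and 14.5 CPM and RBM17 knockdown libraries 12.1, 12.2 and 11.4 CPM. In U2SURP knockdown they held 9.72, 10.2 and 10.4 CPM and in CHERP knockdown 12, 11.9 and 11.4 CPM. U2SURP knockdown was lowest, and the other two knockdowns overlapped each other just under control. SPARC fell in U2SURP knockdown (log2 -0.42 ± 0.067, adjusted p = 2.02e-05). The decreases in RBM17 (log2 -0.18 ± 0.067, adjusted p = 0.0237) and CHERP knockdown (log2 -0.20 ± 0.067, adjusted p = 0.0168) passed the threshold narrowly. Without control library 3, the highest of its group, they were -0.13 (adjusted p = 0.132) and -0.14 (adjusted p = 0.0995), neither called. The RBM17 call also ended without control library 1 (adjusted p = 0.0532) or RBM17 knockdown library 3 (adjusted p = 0.112). SPARC was lower in U2SURP than in RBM17 knockdown, the RBM17 value being 0.23 ± 0.067 log2 units higher (adjusted p = 0.00635). It was also 0.22 ± 0.067 log2 units lower in U2SURP than in CHERP knockdown (adjusted p = 0.0171), a call lost without U2SURP knockdown library 1 (adjusted p = 0.0808) or CHERP knockdown library 2 (adjusted p = 0.0620).

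THBS1 encodes thrombospondin-1, a ligand of CD36 and CD47 that can activate latent TGF-beta (ENSG00000137801; chromosome 15, 39581079 to 39599466, plus strand). It was scarce, with 213 to 579 reads per library. Control libraries held 1.47, 1.40 and 1.53 CPM and RBM17 knockdown libraries 1.90, 1.98 and 1.59 CPM. The U2SURP knockdown libraries held 1.38, 1.17 and 1.23 CPM and the CHERP knockdown libraries 0.756, 1.11 and 1.04 CPM. The groups stood in the order RBM17 knockdown, control, U2SURP and CHERP knockdown with no overlap, the same order as the means of EMILIN2.

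THBS1 fell in CHERP knockdown to 66.0% of control (log2 -0.60 ± 0.14, adjusted p = 9.23e-04). The values in RBM17 (log2 0.31 ± 0.14, adjusted p = 0.0536) and U2SURP knockdown (log2 -0.22 ± 0.14, adjusted p = 0.211) were not called. The DESeq2 Wald test did call the former (log2 0.37, adjusted p = 0.0143), as did the fit without RBM17 knockdown library 3 (adjusted p = 0.0250). Directly compared, THBS1 was higher in RBM17 than in CHERP knockdown by 0.91 ± 0.14 log2 units (adjusted p = 5.56e-06) and than in U2SURP knockdown by 0.53 ± 0.14 (adjusted p = 0.00243). U2SURP and CHERP knockdown differed narrowly (0.38 ± 0.14, adjusted p = 0.0445), a call that ended without CHERP knockdown library 1 (log2 0.23, adjusted p = 0.242) or without U2SURP knockdown library 1, 2 or 3 (adjusted p = 0.15, 0.0524 and 0.0765). FSIP1, on the opposite strand, shares 448 exonic bases with THBS1 and averaged 124 reads in control, 206 in RBM17, 118.7 under U2SURP and 124.3 under CHERP knockdown. The strand setting of the counting is not given in the sources used here, and the part of FSIP1 reads in the THBS1 values was not tested.

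EMILIN1, the relative of EMILIN2 linked to elastic fibre assembly, held 132 to 275 reads per library (ENSG00000138080; chromosome 2, 27078567 to 27086408, plus strand). Control libraries held 0.591, 0.480 and 0.621 CPM and RBM17 knockdown libraries 0.608, 0.940 and 0.937 CPM. They held 0.520, 0.599 and 0.460 CPM in U2SURP and 0.880, 0.922 and 0.800 CPM in CHERP knockdown. CHERP knockdown lay above control and U2SURP knockdown, while RBM17 knockdown library 1 fell within the control range. EMILIN1 rose in CHERP (log2 0.62 ± 0.17, adjusted p = 0.00490) and RBM17 knockdown (log2 0.55 ± 0.18, adjusted p = 0.00999) and was not called in U2SURP knockdown (log2 -0.10 ± 0.18, adjusted p = 0.707). The RBM17 call ended without RBM17 knockdown library 2 (adjusted p = 0.0585), library 3 (adjusted p = 0.0561) or control library 2 (adjusted p = 0.0633). In direct contrasts EMILIN1 was lower in U2SURP than in CHERP knockdown (log2 -0.72 ± 0.17, adjusted p = 0.00302) and higher in RBM17 than in U2SURP knockdown (log2 0.65 ± 0.18, adjusted p = 0.00399).

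Set against EMILIN2, EMILIN1 shared a direction against control in RBM17 knockdown (log2 0.55 ± 0.18 and 1.36 ± 0.096) and had the opposite sign in CHERP knockdown (log2 0.62 ± 0.17 and -0.73 ± 0.095). The difference between the 2 genes was not tested. EMILIN3, of the same family, stood at 52.7 ± 2.92 CPM in control, 42.1 ± 1.93 in RBM17, 36.0 ± 1.00 under U2SURP and 32.2 ± 0.400 under CHERP knockdown. It fell by 0.71 ± 0.054 on the log2 scale in CHERP knockdown (adjusted p = 1.50e-10), and LPIN3 overlaps its exons on the opposite strand.

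Across the direct contrasts, 5 of the 6 unpicked genes were higher and 1 lower in RBM17 than in U2SURP knockdown, where 23.0% of all genes were called higher and 21.5% lower. FBN1 was the gene that was lower. Between RBM17 and CHERP knockdown 3 were higher and 1 lower (26.1% and 25.5% of all genes), and the lower call, FBN1, ended with DESeq2 size factors. Between U2SURP and CHERP knockdown 1 was higher and 3 lower (15.0% and 12.9% of all genes), and the higher call, THBS1, ended among protein-coding genes fitted by themselves.

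Levels of different genes can be compared only per length of their exons. In control, FBN2 led with 23.4 ± 0.338 CPM per kb of merged exons, above 91.0% of the 16291 protein-coding genes tested, followed by FBN1 with 8.19 ± 0.196. EMILIN2 (4.64 ± 0.180) and FN1 (4.44 ± 0.179) overlapped, TNC had 3.47 ± 0.216 and SPARC 2.80 ± 0.217 CPM per kb. SCUBE1 (0.712 ± 0.0317) and TNXB (0.453 ± 0.0584) were lower still. THBS1 (0.160 ± 0.00666) and EMILIN1 (0.143 ± 0.0188) overlapped at the bottom, EMILIN1 above 16.3% of the protein-coding genes. In RBM17 knockdown EMILIN2 stood at 11.9 ± 1.37 CPM per kb, above FBN1 at 5.99 ± 0.226. In CHERP knockdown the libraries of TNXB (0.680 ± 0.0883 CPM per kb) and TNC (0.844 ± 0.107) overlapped. In U2SURP knockdown TNXB stood at 0.888 ± 0.0722 against 1.71 ± 0.145 for TNC. Exon lengths come from GENCODE 29, and 8 of the 10 identifiers carry the same version number there as in the files, the exceptions being TNXB and FBN2. Merged exons pool those of every annotated transcript (17315 bases for FN1), so the order of the genes depends on that annotation.

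**Figure D3:**
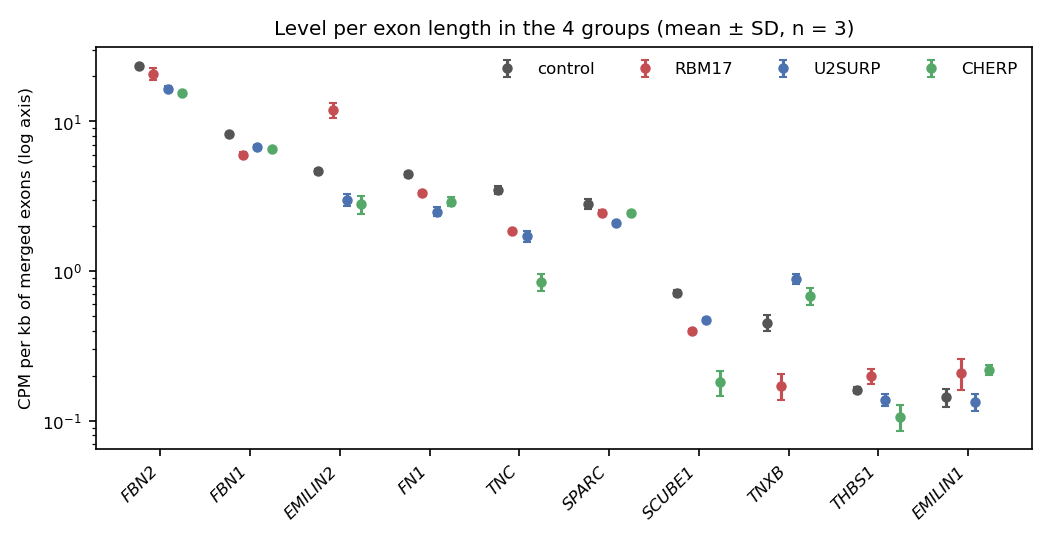
Level per kb of merged exons (vertical log axis) of the 10 genes, ordered by their control level, in the 4 groups; points are means and whiskers the SD of 3 libraries. FBN2 is highest in every group, and EMILIN2 in RBM17 knockdown (11.9) lies above FBN1.

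For each picked gene, the protein-coding genes with the most similar log2 CPM over the 12 libraries were sought among 12850 genes with a mean of at least 1 CPM. The points share their groups, so a correlation mostly reflects the 4 group levels. TNC was most like GPR50, an orphan receptor (r = 0.991; 39.7 CPM in control and 8.19 in CHERP knockdown), and LRP8, a reelin receptor (r = 0.991; 70.1 and 39.4 CPM). TNXB was most like VWCE (r = 0.992), which stood at 10.6 CPM in control, 5.60 in RBM17 and 18.7 in U2SURP knockdown, and SIDT2 (r = 0.988). EMILIN2 was most like PGP, a phosphoglycolate phosphatase (r = 0.996; 26.0 CPM in control and 40.7 in RBM17 knockdown), and LGR5, an R-spondin receptor (r = 0.993; 5.20 and 11.2 CPM). Among the genes most like SCUBE1 was NUP210, a nuclear pore protein (r = 0.982). Its range was narrower too: NUP210 stood at 65.4% of control in CHERP knockdown, where SCUBE1 stood at 25.4%.

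Genes of the surrounding pathway were taken from 5 lists: family relatives of the 10, other matrix glycoproteins, matrix receptors, assembly and turnover enzymes, and TGF-beta pathway genes. A gene is named for the knockdowns in which it was among the most significant of its list, so a knockdown that is not named may hold a call too. The shares of all genes called, against which each list is set, were 29.3% lower and 25.4% higher in RBM17, 22.2% lower and 21.1% higher in U2SURP, and 24.6% lower and 22.8% higher in CHERP knockdown. Among protein-coding genes fitted by themselves the shares were larger, at 32.9% lower and 34.8% higher in RBM17, 28.6% and 30.2% in U2SURP, and 31.2% and 32.2% in CHERP knockdown. Of the relatives, 22 of 23 were tested; 10 fell and 4 rose in RBM17 knockdown, and 15 fell and 4 rose in each of the other two. Their median log2 fold change was -0.30 in RBM17, -0.49 under U2SURP and -0.46 under CHERP knockdown, against -0.099, -0.025 and -0.004 over all genes. THBS4, a thrombospondin of muscle and tendon, rose in U2SURP knockdown from 3.98 ± 0.234 to 9.05 ± 0.583 CPM (log2 1.18 ± 0.078, adjusted p = 6.79e-11) and in RBM17 knockdown by 0.68 ± 0.078 log2 units (adjusted p = 9.05e-08). COMP, the cartilage thrombospondin, rose in RBM17 knockdown (log2 0.74 ± 0.13, adjusted p = 3.11e-05) and fell in CHERP knockdown (log2 -0.35, adjusted p = 0.0339).

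THBS3 fell in RBM17 knockdown from 20.2 ± 1.25 to 6.75 ± 0.971 CPM (log2 -1.58 ± 0.082, adjusted p = 4.45e-13), and MTX1 overlaps its exons on the opposite strand. The thrombospondin family therefore held both directions in RBM17 knockdown. The latent TGF-beta binding proteins, which resemble fibrillins, were all called lower in RBM17 knockdown, where 29.3% of all genes were called lower. The log2 values were -0.27 for LTBP1, -0.54 for LTBP2, -0.74 for LTBP3 and -0.75 for LTBP4. LTBP1, LTBP3 and LTBP4 fell in the other two knockdowns as well, as with LTBP1 in U2SURP knockdown (log2 -0.52 ± 0.051, adjusted p = 2.15e-08). LTBP2 instead rose in U2SURP (log2 0.79 ± 0.057, adjusted p = 2.36e-10) and CHERP knockdown (log2 0.42 ± 0.057, adjusted p = 1.77e-06). FBN3, another fibrillin, fell in CHERP knockdown (log2 -1.26 ± 0.12, adjusted p = 3.77e-09). SPOCK2, a SPARC-related proteoglycan, rose there from 2.71 ± 0.339 to 7.38 ± 0.379 CPM (log2 1.44 ± 0.098, adjusted p = 3.13e-11).

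Among other matrix glycoproteins, 38 of 42 were tested; 20 fell and 4 rose in RBM17 (29.3% and 25.4% of all genes), 21 fell and 2 rose in U2SURP (22.2% and 21.1%), and 23 fell and 3 rose in CHERP knockdown (24.6% and 22.8%). The medians were -0.28, -0.39 and -0.38, against -0.099, -0.025 and -0.004 over all genes. MFGE8, which bridges dying cells to integrins, fell in all 3 knockdowns, from 87.0 ± 2.81 CPM in control to 39.3 ± 2.13 in RBM17, 51.1 ± 2.95 under U2SURP and 34.9 ± 0.482 under CHERP knockdown (adjusted p = 1.45e-13, 1.84e-10 and 1.01e-14). AGRN, the proteoglycan agrin, fell in RBM17 (log2 -0.69 ± 0.052, adjusted p = 1.12e-10), U2SURP (log2 -0.65, adjusted p = 1.17e-09) and CHERP knockdown (log2 -1.11 ± 0.052, adjusted p = 7.98e-14). NID2, a basement membrane linker, fell in U2SURP knockdown (log2 -0.76 ± 0.056, adjusted p = 3.60e-10), and RTRAF overlaps its exons on the opposite strand. SLIT2, an axon guidance ligand, rose in RBM17 knockdown from 269 ± 6.60 to 380 ± 25.5 CPM (adjusted p = 1.74e-07), and CCN2, connective tissue growth factor, rose there by 0.80 ± 0.10 log2 units (adjusted p = 5.21e-07). SLIT2 fell in U2SURP (log2 -0.52, adjusted p = 2.11e-07) and CHERP knockdown (log2 -0.54, adjusted p = 6.91e-08), and CCN2 fell in CHERP knockdown (log2 -0.48, adjusted p = 5.49e-04). FBLN1, fibulin-1, rose in CHERP (log2 0.42 ± 0.050, adjusted p = 2.39e-07) and U2SURP knockdown (log2 0.14 ± 0.050, adjusted p = 0.0258), and ECM1 rose in CHERP knockdown (log2 0.54 ± 0.13, adjusted p = 0.00129). HMCN1 rose in U2SURP (log2 0.37 ± 0.10, adjusted p = 0.00560) and RBM17 knockdown (log2 0.50, adjusted p = 3.18e-04) and fell in CHERP knockdown (log2 -0.36, adjusted p = 0.00762).

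Of the receptors, 21 of 22 were tested; 14 fell and 3 rose in RBM17 (29.3% and 25.4% of all genes) and 14 fell and 1 rose in U2SURP knockdown (22.2% and 21.1%), while 16 fell (24.6% of all genes) and the other 5 were not called in CHERP knockdown. Medians were -0.21, -0.36 and -0.50, against -0.099, -0.025 and -0.004 over all genes. ITGB1, the integrin beta chain shared by the main fibronectin receptors, fell in CHERP knockdown from 181 ± 15.6 to 99.0 ± 5.08 CPM (log2 -0.87 ± 0.061, adjusted p = 4.36e-11). ITGAV, a chain of receptors for fibronectin and other matrix ligands, fell in U2SURP knockdown (log2 -0.62 ± 0.059, adjusted p = 1.62e-08). ITGA1 fell in U2SURP (log2 -0.63 ± 0.066, adjusted p = 6.38e-08) and CHERP knockdown (log2 -0.97 ± 0.067, adjusted p = 3.59e-11). LRP1, an endocytic receptor for thrombospondin-1, fell in RBM17 knockdown from 195 ± 14.8 to 101 ± 10.8 CPM (adjusted p = 1.21e-10), as did ITGA3 (log2 -0.91 ± 0.088, adjusted p = 1.43e-08). ITGA9, a chain of a tenascin-C receptor, rose in RBM17 (log2 0.44 ± 0.070, adjusted p = 1.08e-05) and U2SURP knockdown (log2 0.41 ± 0.070, adjusted p = 4.03e-05), and SDC1 rose in RBM17 (log2 0.26 ± 0.056, adjusted p = 3.52e-04) and fell in CHERP knockdown (log2 -0.50, adjusted p = 8.95e-08).

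**Figure D4:**
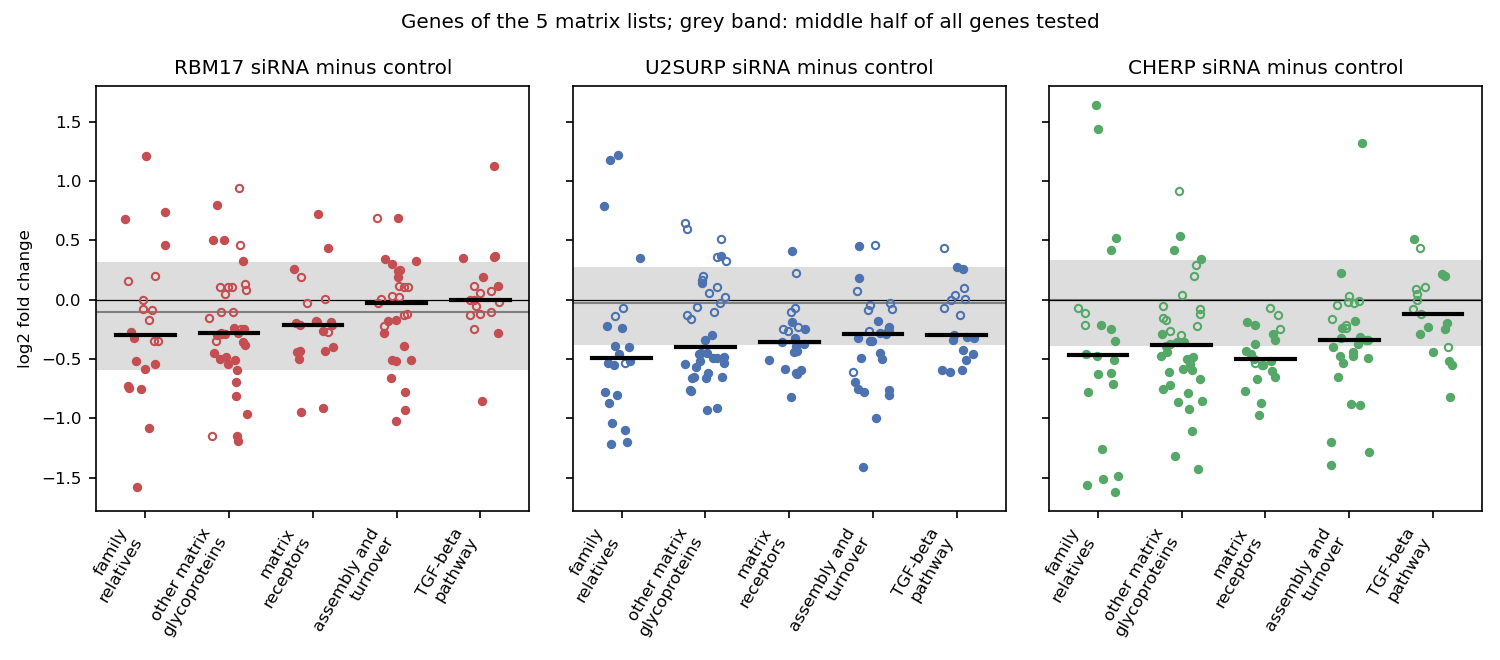
Log2 fold change against control (vertical axis) of the tested genes of the 5 lists in RBM17, U2SURP and CHERP knockdown; points are genes, filled where the adjusted p was under 0.05, black bars are list medians, the grey line is the median of all 29003 genes and the grey band their middle 50%. In U2SURP and CHERP knockdown the 5 medians lie below 0, from -0.50 to -0.12, and in RBM17 knockdown from -0.30 to 0.00.

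Assembly and turnover genes had 29 of 30 tested; 11 fell and 6 rose in RBM17 knockdown (29.3% and 25.4% of all genes), and 19 fell and 2 rose in each of the other two (medians -0.03, -0.29 and -0.34). The RBM17 split turned on the setting: 9 were called lower and 9 higher with DESeq2 size factors, and 14 lower and 4 higher among protein-coding genes fitted by themselves. Of all genes, 22.2% and 24.6% were called lower in U2SURP and CHERP knockdown, and 21.1% and 22.8% higher. TIMP3, a matrix-bound inhibitor of metalloproteinases, fell in CHERP knockdown from 116 ± 8.04 to 44.2 ± 2.39 CPM (log2 -1.39 ± 0.060, adjusted p = 1.91e-14). It also fell in U2SURP knockdown (log2 -0.78, adjusted p = 5.69e-10) and rose in RBM17 knockdown (log2 0.24, adjusted p = 0.00129). PLAT, tissue plasminogen activator, fell in CHERP knockdown by 1.28 ± 0.056 log2 units (adjusted p = 2.37e-14). TIMP2 (from 32.7 ± 2.01 to 16.4 ± 0.880 CPM, adjusted p = 5.58e-11) and the protease ADAMTS1 (log2 -0.80 ± 0.056, adjusted p = 1.76e-10) fell in U2SURP knockdown. MMP2, a gelatinase, rose in RBM17 knockdown (log2 0.69 ± 0.088, adjusted p = 4.06e-07) and fell in U2SURP (log2 -0.50, adjusted p = 7.07e-05) and CHERP knockdown (log2 -1.20, adjusted p = 1.97e-10). The lysyl oxidase relative LOXL3 rose in RBM17 (log2 0.33 ± 0.065, adjusted p = 1.59e-04) and fell in CHERP knockdown (log2 -0.32, adjusted p = 2.82e-04). In RBM17 knockdown LOXL4 (log2 -0.93 ± 0.074, adjusted p = 2.60e-10) and MMP14 (log2 -1.02 ± 0.11, adjusted p = 2.64e-08) fell. ADAMTSL4, which associates with fibrillin-1 microfibrils, rose in CHERP (log2 1.32 ± 0.13, adjusted p = 8.08e-09) and U2SURP knockdown (log2 0.45 ± 0.13, adjusted p = 0.00554). Small increases were called for HTRA1 in U2SURP (log2 0.18 ± 0.063, adjusted p = 0.0212) and ADAMTS6 in CHERP knockdown (log2 0.23 ± 0.068, adjusted p = 0.00674).

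All 19 TGF-beta pathway genes were tested; 2 fell and 6 rose in RBM17 (29.3% and 25.4% of all genes), 10 fell and 2 rose in U2SURP (22.2% and 21.1%), and 8 fell and 3 rose in CHERP knockdown (24.6% and 22.8%). The medians were 0.00, -0.30 and -0.12. Among protein-coding genes fitted by themselves 5 were called lower and 5 higher in RBM17 knockdown. With DESeq2 size factors 10 were called lower and 4 higher in U2SURP, and 8 lower and 5 higher in CHERP knockdown. The ligand TGFB1 fell in RBM17 (log2 -0.28 ± 0.082, adjusted p = 0.00581), U2SURP (log2 -0.59 ± 0.082, adjusted p = 3.00e-06) and CHERP knockdown (log2 -0.82 ± 0.083, adjusted p = 1.63e-08). The receptor TGFBR2 fell in U2SURP (log2 -0.51 ± 0.057, adjusted p = 1.54e-07) and CHERP knockdown (log2 -0.52 ± 0.057, adjusted p = 7.14e-08). SKIL, a repressor of SMAD signalling, rose in U2SURP (log2 0.28 ± 0.071, adjusted p = 0.00217) and CHERP knockdown (log2 0.51 ± 0.071, adjusted p = 1.88e-06). The transducer SMAD2 rose in both of these as well (log2 0.26 ± 0.049 and 0.22 ± 0.049, adjusted p = 1.48e-04 and 8.27e-04). RBM17 knockdown also raised SKIL (log2 0.36, adjusted p = 1.42e-04) and SMAD2 (log2 0.12, adjusted p = 0.0375). In RBM17 knockdown the ligand BMP2 rose from 3.48 ± 0.295 to 7.63 ± 0.619 CPM (adjusted p = 2.57e-10) and the co-receptor TGFBR3 by 0.35 ± 0.053 log2 units (adjusted p = 4.42e-06). BMP2 fell in U2SURP (log2 -0.61, adjusted p = 7.75e-06) and CHERP knockdown (log2 -0.55, adjusted p = 2.35e-05), and TGFBR3 fell in U2SURP knockdown (log2 -0.31, adjusted p = 3.17e-05). These counts describe the lists, and no list was tested as a set.

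Markers of fibroblasts, which make much of the matrix in tissues, were mostly scarce. COL1A1 was the highest, followed by COL6A3 (4.11 CPM in control) and PDGFRA (1.24 CPM). The summed level of the 10 markers was 23.4 to 27.7 CPM in control, 18.2 to 19.5 in RBM17, 16.2 to 20.4 in U2SURP and 15.7 to 18.8 in CHERP knockdown, most of it from COL1A1 (18.9 CPM in control). Among the 8 tested, 4 fell in RBM17 knockdown (29.3% of all genes were called lower). In U2SURP knockdown 3 fell and 1 rose (22.2% and 21.1% of all genes), and in CHERP knockdown 4 fell (24.6%). The marker that rose was COL6A3 (log2 0.25, adjusted p = 0.0213). DCN (0.0393 CPM in control), LUM (0.0588) and THY1 (0.0291) were near 0. The 5 endothelial markers summed to 0.570 to 0.649 CPM in control, 1.05 to 1.22 in RBM17, 0.265 to 0.385 in U2SURP and 0.344 to 0.397 in CHERP knockdown, and the higher sum in RBM17 knockdown came from KDR (0.295 CPM in control and 0.983 there). Of the others tested, VWF fell in RBM17 knockdown (log2 -1.12, adjusted p = 0.0465), and PECAM1 (log2 -0.92, adjusted p = 0.168) and TEK (log2 -0.88, adjusted p = 0.145) were not called. No marker of either list was at 0 throughout a group, and the part of other cells in the matrix gene values was not tested.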

How the data were processed

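RNA from 12 libraries of HEK293 cells, 3 per siRNA group, was prepared with a stranded mRNA kit, per the labels' protocols. The authors deposited raw read counts per Ensembl gene. HISAT2 2.0.5, SAMtools, HTSeq and GRCh38 are named, without their roles, per the submitters' processing notes. Neither the annotation release nor the strand setting is given in the sources used here. No row of the files is other than a gene.

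Groups came from the labels. The library numbers form a block for each group, so batch and group cannot be told apart. Between libraries of a group, counts differed beyond sampling noise (chi-square per gene 11.68 to 51.69), and each library was counted as its own. GENCODE 29 named 56996 of the 60554 identifiers. After filterByExpr and TMM scaling, edgeR 4.0.16 under R 4.3.3 fitted the counts of all 4 groups jointly by robust quasi-likelihood. SE is the absolute log2 fold change over the square root of F. Adjusted p-values are Benjamini-Hochberg over 29003 genes. The code was tested on simulated data.

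The members, lists and marker genes were chosen with earlier results of these data known. Named genes were the 10 members with overlapping genes and copies, the 3 targets, at most 2 called genes per list, direction and knockdown by smallest p with a mean of at least 1 CPM, and the 2 genes most like each picked member (Pearson on log2 of CPM plus 0.01), of which 1 is not reported here. Of the 49 list and similar genes, 17 share exonic bases with another tested gene, and not every such overlap is named above. The fit was repeated with size factors of DESeq2 1.42.0, with its Wald test, unfiltered, on protein-coding genes, on 2 groups at a time and leaving out each library. Another fit, chosen after seeing the data, dropped both library 2 of RBM17 knockdown and library 3 of control.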

Additional observations from a re-analysis of the deposited data

How the results depend on the processing

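No comparison or list changed its count of called genes, both directions together, by over 1.5 times under any alternative run. The split by direction shifted: over all genes, each knockdown leaned lower in the main fit and higher with DESeq2 size factors. In RBM17 knockdown the splits of the assembly and turnover list, of the TGF-beta pathway list and of the 6 unpicked genes shifted as well. No called fold change of the 10 genes changed sign. No paired analysis was possible because the labels give each library its own number and share none between groups. Depth was lowest for EMILIN1, at 132 to 275 reads per library, and THBS1, at 213 to 579.

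Calls that ended, with log2 values, were these. For FBN2 in RBM17 knockdown against control, DESeq2 size factors gave -0.11, a fit of the 2 groups -0.12 and the DESeq2 Wald test -0.11, with -0.21 to -0.09 when leaving out each library. For SPARC in RBM17 knockdown against control, the same 3 alternatives gave -0.13, -0.14 and -0.13, dropping both library 2 of RBM17 knockdown and library 3 of control gave -0.14, and leaving out each library -0.24 to -0.13. For SPARC in CHERP knockdown against control, dropping the same 2 libraries gave -0.14 and leaving out each library -0.25 to -0.14. For FBN1, RBM17 minus CHERP knockdown, DESeq2 size factors gave -0.09, no filter -0.11, a fit of the 2 groups -0.11 and the DESeq2 Wald test -0.09, with -0.14 to -0.07 when leaving out each library. For FN1, RBM17 minus CHERP knockdown, protein-coding genes alone gave 0.12. For THBS1, U2SURP minus CHERP knockdown, protein-coding genes alone gave 0.36 and a fit of the 2 groups 0.38, with 0.23 to 0.49 when leaving out each library. Calls that ended only when a library was left out were EMILIN1 in RBM17 knockdown against control (0.45 to 0.74), FN1 (-0.27 to -0.17) and SPARC (-0.24 to -0.18), both U2SURP minus CHERP knockdown. THBS1 in RBM17 knockdown against control became called under DESeq2 size factors (0.37), a fit of the 2 groups (0.36) and the DESeq2 Wald test (0.37), with 0.25 to 0.40 when leaving out each library. TNC, RBM17 minus CHERP knockdown, ranged from 1.03 to 1.26 when leaving out each library, and 1.26 was the value without CHERP knockdown library 3. The cause of these shifts was not tested.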
